A study of Homo sapiens with 18 samples.

Results

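The nuclear-encoded genes of the mitochondrial respiratory chain and of ATP synthase were followed in NCI-H1975, an established human lung adenocarcinoma cell line. Members were the protein-coding genes whose symbols name a subunit of complex I (NDUFA, NDUFB, NDUFC, NDUFS and NDUFV), complex II (SDHA to SDHD), complex III (UQCR and CYC1), complex IV (COX4 to COX8) or complex V (ATP5F, ATP5M and ATP5P). This gave 87 of the 61487 counted genes, of which 19318 are protein-coding. Complex I held 36 members, complex II 4, complex III 10, complex IV 18 and complex V 19, with NDUFA4 counted in complex IV, where its protein is now placed. A further 120 genes with matching symbols are not protein-coding.

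The respiratory chain passes electrons from NADH through complex I, or from succinate through complex II, to ubiquinone, then through complex III and cytochrome c to complex IV, which reduces oxygen. Complexes I, III and IV pump protons across the inner membrane, and complex V (ATP synthase) uses the gradient to make ATP. A small part of the subunits is encoded in mitochondrial DNA and made on mitochondrial ribosomes. The nuclear members studied here are made on cytosolic ribosomes and imported.

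The 18 libraries form 6 groups of 3: sgDAMP, Scramble and sgControl cells, each profiled as mRNA and as ribosome footprints, the RNA stretches that ribosomes protect from nuclease. sgDAMP cells carry a knockout of the peptide DAMP, and sgControl cells are the CRISPR control for it. The deposited tables of the sgDAMP libraries are named sgTIAMP, and groups follow the labels. Scramble cells are a separate control set, which the labels do not describe further. Footprint cells were harvested after cycloheximide, a blocker of translation elongation, at 100 µg/ml. The labels do not say whether a line is 1 clone or whether replicates are separate cultures, so p-values measure only the spread between these libraries, which may be technical.

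The mRNA libraries held between 17171514 and 17455799 gene counts in sgDAMP, between 10859527 and 12424884 in Scramble and between 17098397 and 17464782 in sgControl. The footprint libraries held between 6207783 and 6864945 in sgDAMP, between 1035159 and 1302852 in Scramble and between 6845899 and 7840852 in sgControl. Protein-coding genes held 6.40% to 20.3% of Scramble footprint counts, against 76.5% to 79.5% in the other footprint libraries, so levels are given as CPM with the protein-coding counts of the library as the total (coding CPM). Reads outside annotated genes made up 42.5% to 43.2% of Scramble mRNA reads, against at most 1.43% in the other mRNA libraries. The Scramble and CRISPR sets therefore differ in preparation or counting as well as in cells, and these cannot be told apart. The 3 footprint libraries of sgDAMP, and those of sgControl, differed by no more than sampling noise for most genes. The mean chi-square per degree of freedom was 0.910 in sgDAMP and 0.909 in sgControl over the 99% of genes with the lowest values. Beyond noise were 21 of 12454 genes in sgDAMP and 57 of 12195 in sgControl, with 0 members in either. Each set was therefore summed and counted as 1 sample. DSP-AS1, the lncRNA gene known from the study to encode the peptide, had 2 footprints in sgDAMP and 567 in sgControl. Of the epithelial markers KRT7, KRT8 and KRT18 were abundant in mRNA of every group, whereas EPCAM reached at most 1.21 CPM in any mRNA library. Of the lung lineage markers FOXA2 had 2454 mRNA counts in sgDAMP, 1124 in Scramble and 2900 in sgControl, with 152 footprints in sgDAMP, 12 in Scramble and 112 in sgControl, while NKX2-1, SFTPD and NAPSA had 0 footprints in every group. Of the leukocyte genes ITGAM had 108 mRNA counts in sgDAMP, 41 in Scramble and 108 in sgControl, with 159 footprints in sgDAMP, 0 in Scramble and 133 in sgControl, while PTPRC and CD3E had 0 counts throughout.

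Many respiratory chain promoters are known to be bound by nuclear respiratory factor 1 (NRF1) and by ETS-family proteins such as GABP. Sequences from 250 bases before to 50 after the annotated start were available for 69 members in the RefSeq table (GRCh38.p14). The NRF1 motif, GCGCA and GCGC with 1 free base between them, was present in 17 of the 69 (24.6%), against 8.67% of 15438 protein-coding promoters. The ETS motif CCGGAAG was present in 20 (29.0%), against 14.4%. TATAAA was found in 7 (10.1%), against 9.61%. Matches were counted on both strands, and a match describes letters, not a bound site. Of the 5 upstream stretches printed here, all but that of ATP5F1C belong to members that later results turn on. UQCRC1 (chr3:48609647-48609896, minus strand) and UQCRFS1 (chr19:29213152-29213401, minus strand) had few footprints for their mRNA in the CRISPR cells. SDHA (chr5:218070-218319, plus strand) and COX8A (chr11:63974370-63974619, plus strand) had many, and ATP5F1C (chr10:7787927-7788176, plus strand) stands for the central stalk of complex V. Each runs 5′ to 3′ toward the start, and capitals mark matches to the NRF1 motif or, in COX8A, to the ETS motif.
UQCRC1: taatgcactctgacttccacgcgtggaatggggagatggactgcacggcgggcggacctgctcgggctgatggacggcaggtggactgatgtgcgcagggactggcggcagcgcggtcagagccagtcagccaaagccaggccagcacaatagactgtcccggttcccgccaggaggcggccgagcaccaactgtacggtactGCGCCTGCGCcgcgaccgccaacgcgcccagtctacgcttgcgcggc
UQCRFS1: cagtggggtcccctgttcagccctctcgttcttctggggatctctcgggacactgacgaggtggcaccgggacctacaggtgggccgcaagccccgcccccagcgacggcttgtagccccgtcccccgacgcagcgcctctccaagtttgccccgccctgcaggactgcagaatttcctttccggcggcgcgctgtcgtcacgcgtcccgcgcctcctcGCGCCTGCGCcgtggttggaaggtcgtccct
SDHA: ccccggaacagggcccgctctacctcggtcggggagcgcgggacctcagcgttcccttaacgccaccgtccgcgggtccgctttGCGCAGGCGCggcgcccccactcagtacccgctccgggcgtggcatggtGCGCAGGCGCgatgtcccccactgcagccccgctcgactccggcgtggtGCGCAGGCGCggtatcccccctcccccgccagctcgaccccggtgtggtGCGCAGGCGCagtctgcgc
COX8A: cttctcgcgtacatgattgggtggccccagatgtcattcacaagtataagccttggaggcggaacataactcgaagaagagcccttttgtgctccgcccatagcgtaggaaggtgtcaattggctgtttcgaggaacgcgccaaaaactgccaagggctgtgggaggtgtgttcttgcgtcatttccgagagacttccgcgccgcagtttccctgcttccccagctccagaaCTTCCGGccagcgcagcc
ATP5F1C: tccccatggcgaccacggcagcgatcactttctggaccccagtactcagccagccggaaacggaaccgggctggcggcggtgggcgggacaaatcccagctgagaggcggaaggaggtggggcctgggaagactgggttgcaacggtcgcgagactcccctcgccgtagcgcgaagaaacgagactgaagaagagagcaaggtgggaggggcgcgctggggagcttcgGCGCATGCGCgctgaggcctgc
UQCRC1, UQCRFS1 and ATP5F1C each held 1 NRF1 match in this stretch and SDHA held 4. Because these 5 were picked with results known, no relation between motif and footprint ratio can be read from them. Such a relation was not tested. The ratios of UQCRFS1 and SDHA leave out reads counted to their pseudogenes. A start with C followed by 4 pyrimidines, letters known from the mRNAs of translation factors, was seen in 9 of the 69 (13.0%), against 4.66% of protein-coding promoters, among them COX4I1, COX7C, UQCRH and ATP5MC2.

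Most broadly used subunits were detected, and the tissue-restricted isoforms were at or near 0. COX6A2, COX7B2 and COX8C, isoforms known from muscle and testis, had no count in any library, and COX4I2, the subunit 4 isoform known from lung, had 1 count in all. At least 100 counts were reached by 76 members in sgDAMP mRNA, 73 in Scramble mRNA and 76 in sgControl mRNA. In footprints 72 reached this in sgDAMP, 41 in Scramble and 69 in sgControl. ATP5MF-PTCD1, a readthrough of ATP5MF into its neighbour, had 0 counts in sgDAMP mRNA, 374 in Scramble mRNA and 0 in sgControl mRNA. Some core subunits had very low mRNA counts. NDUFV2, an iron-sulfur subunit of complex I, had 24 in sgDAMP, 24 in Scramble and 5 in sgControl. SDHA, the flavoprotein of complex II, had 192 in sgDAMP, 33 in Scramble and 145 in sgControl, fewer than its pseudogenes in all 3. Levels of such genes are uncertain: 48 members have at least 1 pseudogene named after them, and 29 have spans that overlap another gene, 20 of them a protein-coding one. With no transcript lengths at hand, levels are compared only for the same gene between groups.

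As a group the members held a similar share of coding mRNA in sgDAMP and sgControl cells and a smaller one in Scramble cells. Their share of coding counts was 1.41%, 2.40% and 1.998% in the sgDAMP mRNA libraries (mean 1.94% ± 0.496, SD, n = 3), against 1.56%, 1.67% and 1.98% in the sgControl libraries (mean 1.74% ± 0.221, SD, n = 3). The sgDAMP libraries include both the lowest and the highest of these 6. In Scramble mRNA the share was 0.885%, 0.934% and 0.947% (mean 0.922% ± 0.0327, SD, n = 3), below every CRISPR library. Fewer cells of a type and less RNA per cell cannot be told apart in such bulk samples.

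In footprints the order was different. The summed libraries gave 1.87% of coding footprints in sgDAMP and 1.501% in sgControl, and the Scramble libraries gave 2.78%, 2.68% and 2.52% (mean 2.66% ± 0.13, SD, n = 3). This order rests on the denominator: as a share of all gene counts the footprint values were 1.43% in sgDAMP, 0.417% in Scramble and 1.19% in sgControl. Of coding footprints complex IV held 0.925% ± 0.0240 in Scramble cells (SD, n = 3) and 0.443% in sgControl cells. Of coding mRNA it held 0.214% ± 0.00849 in Scramble cells and 0.426% ± 0.0971 in sgControl cells (SD, n = 3 each). Complex III took similar footprint shares, 0.266% in sgDAMP, 0.256% ± 0.0368 in Scramble (SD, n = 3) and 0.233% in sgControl.

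**Figure D1:**
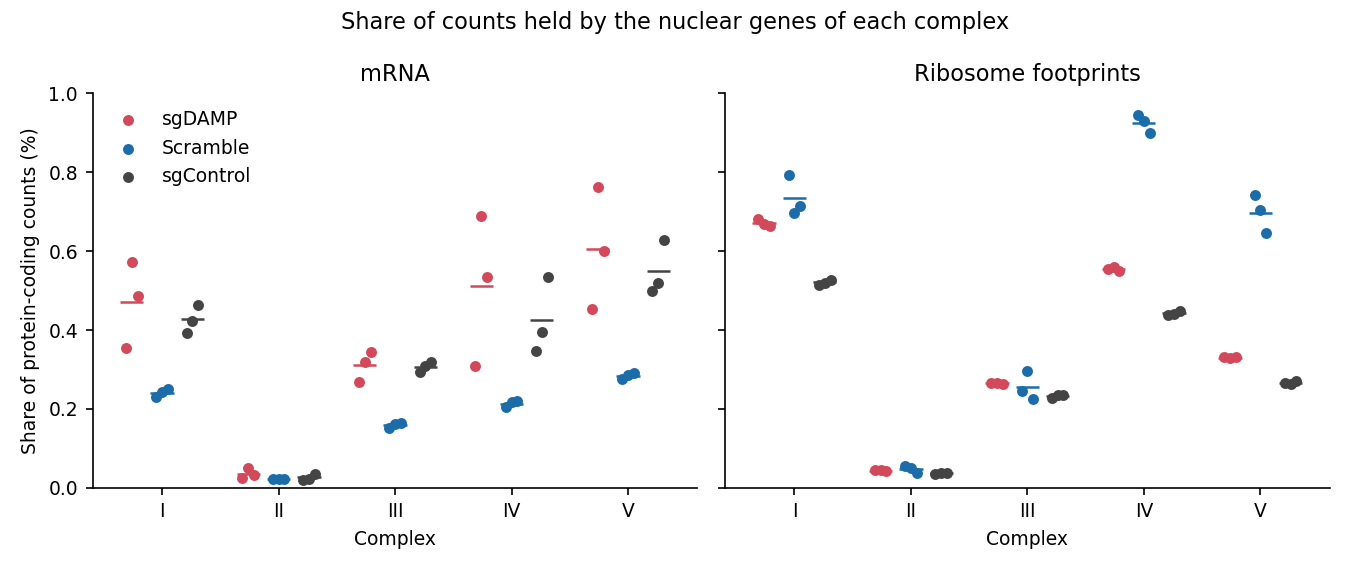
Share of protein-coding counts (percent, y axis) held by the nuclear genes of complexes I to V (x axis) in mRNA and in footprints of sgDAMP, Scramble and sgControl cells; each point is a library and bars are means, and the footprint libraries of sgDAMP, like those of sgControl, count as 1 sample. Scramble means are the lowest in mRNA for every complex, and the highest in footprints for every complex but III.

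Comparing mRNA of sgDAMP with sgControl cells asks whether transcript amounts differed without the peptide. No member passed: edgeR called 0 of 78 tested members higher and 0 lower (0.0% of 14032 genes in either direction), 0 members reached an unadjusted p under 0.05, and DESeq2 also called 0 members. Of all 14032 genes, 741 reached an unadjusted p under 0.05 in edgeR. The members' median log2 change was 0.09, against 0.03 over all genes tested. Above 0 were 54 of 78 members, against 7413 of 14032 genes. Complex II had 4 of 4 above 0 with a median of 0.24, complex V 10 of 17 with 0.15, complex IV 9 of 12 with 0.14, complex I 24 of 35 with 0.07 and complex III 7 of 10 with 0.06. The members' median minus that of all genes was 0.29 without sgDAMP replicate 1 and -0.11 without sgDAMP replicate 2, so its sign rests on single libraries.

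Among members whose log2 CPM averaged 3 or more, the highest value of complex I was that of NDUFB5, an accessory subunit of the membrane arm. It had 11.3, 23.3 and 11.9 coding CPM in sgDAMP mRNA, against 0.535, 8.14 and 15.1 in sgControl mRNA. The groups overlap, and the log2 change was 0.88 (SE 0.67, adjusted p = 0.862) in edgeR. SDHB, the iron-sulfur subunit of complex II, had 86.9, 209 and 133 coding CPM in sgDAMP and 70.9, 88.3 and 133 in sgControl, a log2 change of 0.44 (SE 0.34, adjusted p = 0.862) in edgeR. COX7B, a small subunit of complex IV, had 197, 617 and 469.6 coding CPM in sgDAMP and 184, 258 and 429 in sgControl, a log2 change of 0.47 (SE 0.41, adjusted p = 0.862) in edgeR. For SDHB and COX7B too, libraries of both groups overlap.

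At the other end COX8A, another small subunit of complex IV, had 53.9, 65.5 and 64.0 coding CPM in sgDAMP, against 87.2, 93.3 and 49.7 in sgControl, a log2 change of -0.48 (SE 0.31, adjusted p = 0.862) in edgeR. One sgControl library lies below all 3 sgDAMP libraries. CYC1, the cytochrome c1 of complex III, had 1128, 897 and 1444 coding CPM in sgDAMP and 1368, 1369 and 1255 in sgControl, a log2 change of -0.34 (SE 0.30, adjusted p = 0.862) in edgeR. The other highest members of their complexes were ATP5PB at 0.47 and UQCRB at 0.35, and the other lowest were ATP5F1D at -0.28, NDUFV1 at -0.23 and SDHC at 0.22 on the log2 scale. Fainter members reached 0.87 (ATP5ME) and -0.74 (UQCRHL).

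On the TMM scale the libraries of the groups did not overlap for 2 members that were higher in sgDAMP, UQCRC2 and UQCRFS1 (2.56% of 78, against 5.91% of all tested genes), and for 1 that was lower, COX5A (1.28%, against 5.54%). UQCRFS1, the Rieske iron-sulfur protein of complex III, had 336, 299 and 293 coding CPM in sgDAMP and 246, 231 and 275 in sgControl, a log2 change of 0.16 (SE 0.25, adjusted p = 0.901) in edgeR. COX5A, a subunit on the matrix side of complex IV, had 273, 280.0 and 279.7 coding CPM in sgDAMP and 292, 283 and 299 in sgControl, a log2 change of -0.21 (SE 0.25, adjusted p = 0.87) in edgeR. Both shares are below the background. Replicate spread was wide: 73 of 77 members in sgDAMP mRNA and 70 of 78 in sgControl mRNA differed between libraries of the group beyond sampling noise. Over all genes 11282 of 14128 did in sgDAMP mRNA and 10313 of 13738 in sgControl mRNA, so wide spread was common.

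Genes that serve the chain also gave 0 calls. Over all genes 7413 of 14032 log2 changes were above 0. Of 48 tested assembly factors 38 were above 0 with a median log2 change of 0.23, and of 13 regulators such as NRF1, GABPA and TFAM 8 were, with 0.12. Of 18 enzymes of the TCA cycle 9 were above 0 with a median of 0.04, of 11 other subunits and carriers 6 with 0.01, and of 13 subunits encoded in mitochondrial DNA 4 with -0.10.

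Comparing footprints of the same cells asks whether ribosome occupancy differed. With 1 sample per condition there is no test. Members were called at a ratio of at least 1.5, or its inverse, with a 95% exact Clopper-Pearson interval that excludes 1. Of 75 members 6 were called higher in sgDAMP (8.0%, against 14.1% of all genes) and 1 lower (1.33%, against 11.3%). The members' median log2 ratio was 0.09, against 0.01 over all genes. Both shares are below the background, and 68 members were not called. No molecular identifiers mark the reads, so the intervals reflect counting error alone. Scaling by total counts in place of TMM moved the median gene by 0.22 and gave 14 members higher and 0 lower.

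Of the 6 members with higher footprints 5 belong to complex I, 14.7% of its 34, which is near the background. NDUFA10, an accessory subunit of complex I, had footprints of 606 in sgDAMP and 370 in sgControl, a ratio of 1.59 (1.39 to 1.81), with a log2 change in mRNA of 0.07 (SE 0.26, adjusted p = 0.958) in edgeR. Several rest on fewer counts. NDUFA5 had 135 in sgDAMP and 60 in sgControl, a ratio of 2.18 (1.60 to 3.01), and it is the member past a ratio of 2. With the reads of its pseudogenes added its log2 ratio was 0.44, against 1.13 without them. NDUFA11 had 91 in sgDAMP and 51 in sgControl, a ratio of 1.73 (1.21 to 2.49). NDUFC2 had 116 in sgDAMP and 72 in sgControl, a ratio of 1.56 (1.15 to 2.13). ATP5ME, the e subunit in the membrane part of complex V, had 127 in sgDAMP and 78 in sgControl, a ratio of 1.58 (1.18 to 2.12). The lower member, NDUFV2, had 25 in sgDAMP and 44 in sgControl, a ratio of 0.551 (0.323 to 0.920), and it was not called without sgDAMP replicate 1, sgDAMP replicate 2 or sgControl replicate 2.

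In the other complexes, members above that mean level stayed inside the limits. In complex III UQCRB had 759 in sgDAMP and 514 in sgControl, a ratio of 1.43 (1.28 to 1.60), and CYC1 had 8536 in sgDAMP and 9480 in sgControl, a ratio of 0.873 (0.848 to 0.899). In complex II SDHB had 570 in sgDAMP and 471 in sgControl, a ratio of 1.17 (1.04 to 1.33), and SDHA had 558 in sgDAMP and 596 in sgControl, a ratio of 0.908 (0.807 to 1.02). In complex IV NDUFA4 had 1973 in sgDAMP and 1458 in sgControl, a ratio of 1.31 (1.23 to 1.40), and COX5B had 6762 in sgDAMP and 6848 in sgControl, a ratio of 0.957 (0.925 to 0.99). In complex V ATP5PD had 530 in sgDAMP and 370 in sgControl, a ratio of 1.39 (1.21 to 1.59), and ATP5F1D had 1854 in sgDAMP and 2233 in sgControl, a ratio of 0.805 (0.756 to 0.856). The lowest well-covered member of complex I was NDUFS7, with 714 in sgDAMP and 887 in sgControl, a ratio of 0.780 (0.706 to 0.862).

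**Figure D2:**
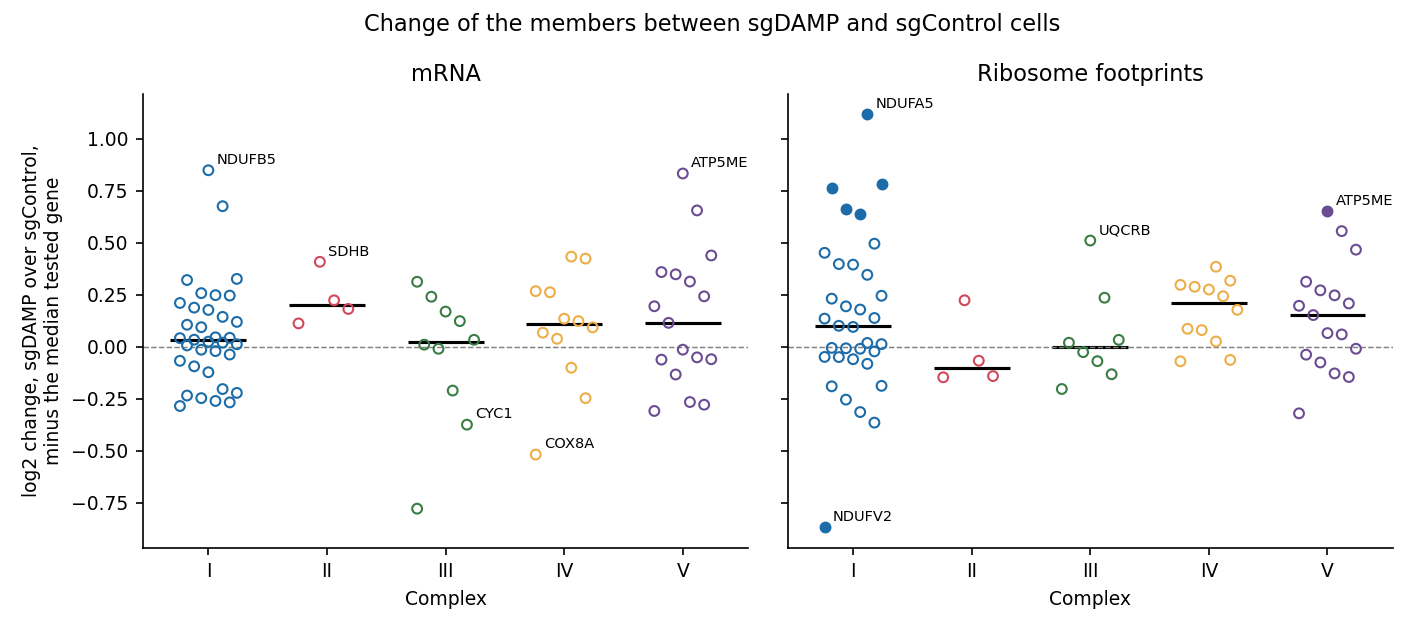
log2 change of each tested member, sgDAMP over sgControl, minus the median tested gene (y axis), by complex (x axis), in mRNA (78 members) and in footprints (75 members); filled points were called, open points were not, bars are medians and the dashed line is the median tested gene. In mRNA 0 points are filled, and in footprints 7 are. In complex I 5 of 34 were called higher (14.7%) and 1 lower (2.94%), against 14.1% and 11.3% of all genes.

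Among assembly factors 7 of 47 had higher footprints and 0 lower (14.9% and 0.0%, against a background of 14.1% and 11.3%). Both shares are near or below the background. SURF1, an assembly factor of complex IV, had 97 footprints in sgDAMP and 32 in sgControl, a ratio of 2.94 (1.95 to 4.53), and COX17, a copper chaperone, 258 in sgDAMP and 160 in sgControl, a ratio of 1.56 (1.28 to 1.92). In the TCA cycle 3 of 18 were higher. One of the 13 mitochondrially encoded subunits (MT-ATP8), 1 of 12 regulators (TFB1M) and 1 of 9 other subunits and carriers (ETFB) were higher.

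Footprints relative to mRNA were then compared between sgDAMP and sgControl by the interaction of assay and condition. Of 81 tested members edgeR called 0 higher and 0 lower (background 0.031% and 0.227% of 19357 genes), and DESeq2 also called 0. One member, NDUFV2, reached an unadjusted p under 0.05 at -2.92 (SE 1.38, adjusted p = 0.913) in edgeR. The members' median was -0.02, against 0.00 over all genes tested. The highest value among members named for their complexes was 0.76 (SE 0.66, adjusted p = 1.0) in edgeR for COX8A, followed by 0.62 for NDUFA10 (SE 0.59). The lowest was that of UQCR11, which had 0 footprints in sgDAMP, so its fitted value is not given, and the next was -0.89 for NDUFB5 (SE 1.21). The others ran from -0.53 for ATP5MG (SE 1.09), -0.38 for SDHA, -0.36 for COX7B and -0.20 for SDHB to 0.44 for UQCRC1 and 0.50 for ATP5PD. The footprint sums stand for 1 sample each and are assumed to vary like the mRNA libraries.

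Within each kind of cell, members differed widely in how many footprints they had for their mRNA. In sgDAMP 17 of 81 members were higher in footprints than in mRNA and 27 lower (background 38.3% and 29.5%), and in sgControl 24 were higher and 29 lower (background 39.3% and 30.4%). Over protein-coding genes alone the background was 30.1% and 34.6% in sgDAMP and 31.4% and 36.1% in sgControl. All 17 members higher in sgDAMP were among the 24 of sgControl (100.0% and 70.8% of each list), and all 27 lower were among the 29 (100.0% and 93.1%). Across 74 members the log2 ratios of both conditions had a Pearson r of 0.988, against 0.972 across 9091 protein-coding genes, as a description across genes. The conditions share no library but were fitted together. Each footprint sum is 1 sample, so the spread in this fit comes from the mRNA libraries alone. The footprint sums are assumed to vary like them, and no footprint spread is measured. Without sgDAMP mRNA replicate 2 the count of higher members in sgDAMP was 29. With total counts in place of TMM 14 were higher and 30 lower in sgDAMP, and 14 higher and 32 lower in sgControl, since the scaling sets the 0 point. Values below are therefore given relative to the median tested gene, on the log2 scale. Calls test the ratio against 0 on the TMM scale, not against the median gene. On that scale the median gene lay at 0.20 in sgDAMP and 0.19 in sgControl. Relative to the median gene, the median of protein-coding genes lay at -0.50 in sgDAMP and -0.54 in sgControl.

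The median of complex V lay at -1.41 in sgDAMP, with 2 members higher and 10 lower of 17, and at -1.42 in sgControl, with 3 higher and 10 lower. That of complex III lay at -0.77 in sgDAMP and -1.37 in sgControl. The lower 10 of complex V were the same genes in both conditions: ATP5F1A, ATP5F1B, ATP5F1D and ATP5F1E of the F1 part, the c-ring genes ATP5MC2 and ATP5MC3, and ATP5MF, ATP5MJ, ATP5MK and ATP5PD. Of these, ATP5F1E, ATP5MC2, ATP5MF and ATP5MK had fewer footprints than their pseudogenes in both conditions. The median of complex V with pseudogene reads added is not given here. ATP5F1B, the catalytic beta subunit, had 320.2, 317 and 315 coding CPM of footprints in sgDAMP beside 1986, 2887 and 2242 of mRNA. In sgControl it had 219, 208 and 226 of footprints beside 2161, 1966 and 2479 of mRNA. Its relative ratio was -2.98 in sgDAMP and -3.24 in sgControl. ATP5PB, the b subunit of the peripheral stalk, lay at 2.66 in sgDAMP and 2.98 in sgControl, and ATP5MG, the g subunit, at 4.36 in sgDAMP and 4.93 in sgControl. ATP5MG rests on 1926 footprints beside 288 mRNA counts in sgDAMP and on 1672 beside 169 in sgControl.

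In complex III the paired core proteins UQCRC1 and UQCRC2 lay far apart. UQCRC1 had 62.4, 61.2 and 57.4 coding CPM of footprints in sgDAMP beside 719.7, 707 and 817 of mRNA, and 44.1, 41.6 and 41.4 of footprints in sgControl beside 789.9, 813 and 692 of mRNA. Its relative ratio was -3.71 in sgDAMP and -4.09 in sgControl. UQCRC2 had 728, 707 and 707 of footprints in sgDAMP beside 144, 162 and 124 of mRNA, and 600.1, 631 and 622 in sgControl beside 89.2, 106 and 127. Its relative ratio was 2.25 in sgDAMP and 2.63 in sgControl. In every library of both conditions footprints were below mRNA for UQCRC1 and above it for UQCRC2. UQCRFS1 lay at -3.33 in sgDAMP and -3.18 in sgControl, and with the reads of its pseudogenes added at 1.37 in sgDAMP and 1.80 in sgControl. UQCR11, a small accessory subunit, had 0 footprints beside 1235 mRNA counts in sgDAMP, at least 127-fold lower at a floor of 3 counts over the group. In sgControl it had 2 beside 1130, a 202-fold difference (counting interval 55.8 to 1672).

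Complex I had 10 higher and 8 lower of 36 in sgDAMP and 12 higher and 9 lower in sgControl, with medians of 0.16 in sgDAMP and 0.19 in sgControl. NDUFS7, the core subunit that holds the last iron-sulfur cluster before ubiquinone, lay at 2.69 in sgDAMP and at 3.36 in sgControl. NDUFB3 lay at 2.72 in sgDAMP and 2.87 in sgControl, and NDUFA9 at 2.59 in sgDAMP. NDUFB7 and NDUFB11, subunits of the membrane arm, were the lowest named, with -4.03 and -3.60 in sgDAMP and -4.35 and -3.53 in sgControl. Complex II held both directions: SDHA lay at 3.16 in sgDAMP and 3.60 in sgControl, and SDHB at -2.02 in sgDAMP and -1.77 in sgControl. In mRNA the pseudogenes of SDHA took 516 counts beside its own 192 in sgDAMP, and 432 beside 145 in sgControl. The ratio of SDHA with pseudogene reads added is not given here. In complex IV COX8A was highest, at 2.03 in sgDAMP and 1.34 in sgControl, and COX7A2 lowest of those above the mean level, at -2.92 in sgDAMP and -2.88 in sgControl.

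Some reads of these families were counted to pseudogenes. The 186 pseudogenes named after members took 35628 footprints in sgDAMP (11.1% of the counts of members and pseudogenes together) and 38213 in sgControl (12.5%). In mRNA they took 0.0756% in sgDAMP and 0.0644% in sgControl. Pseudogenes of any gene held 13.84% to 14.01% of all gene counts in sgDAMP footprint libraries and 12.49% to 12.70% in sgControl. In the mRNA libraries of both they held 0.235% to 0.302%. These shares have a different total, but a higher pseudogene share in footprints than in mRNA was not limited to these families. UQCRFS1P1 had 12158 footprints in sgDAMP and 13982 in sgControl, where UQCRFS1 itself had 490 in sgDAMP and 462 in sgControl. In mRNA the pseudogene had 35 counts in sgDAMP and 15 in sgControl. In sgDAMP 10 members and in sgControl 11 had fewer footprints than their pseudogenes, among them ATP5F1E, ATP5MC2, ATP5MF, ATP5MK, COX5A and NDUFB1. The 33 members without a named pseudogene had a median relative ratio of -1.06 in sgDAMP and -1.23 in sgControl, and the 24 with 3 or more had 0.40 in sgDAMP and 0.43 in sgControl. With pseudogene reads added to each member, 23 were higher and 19 lower in sgDAMP, and 29 higher and 21 lower in sgControl. How reads with several positions were assigned is not given in the sources used here, and the part of such reads in the ratios of single members beyond these values was not tested.

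**Figure D3:**
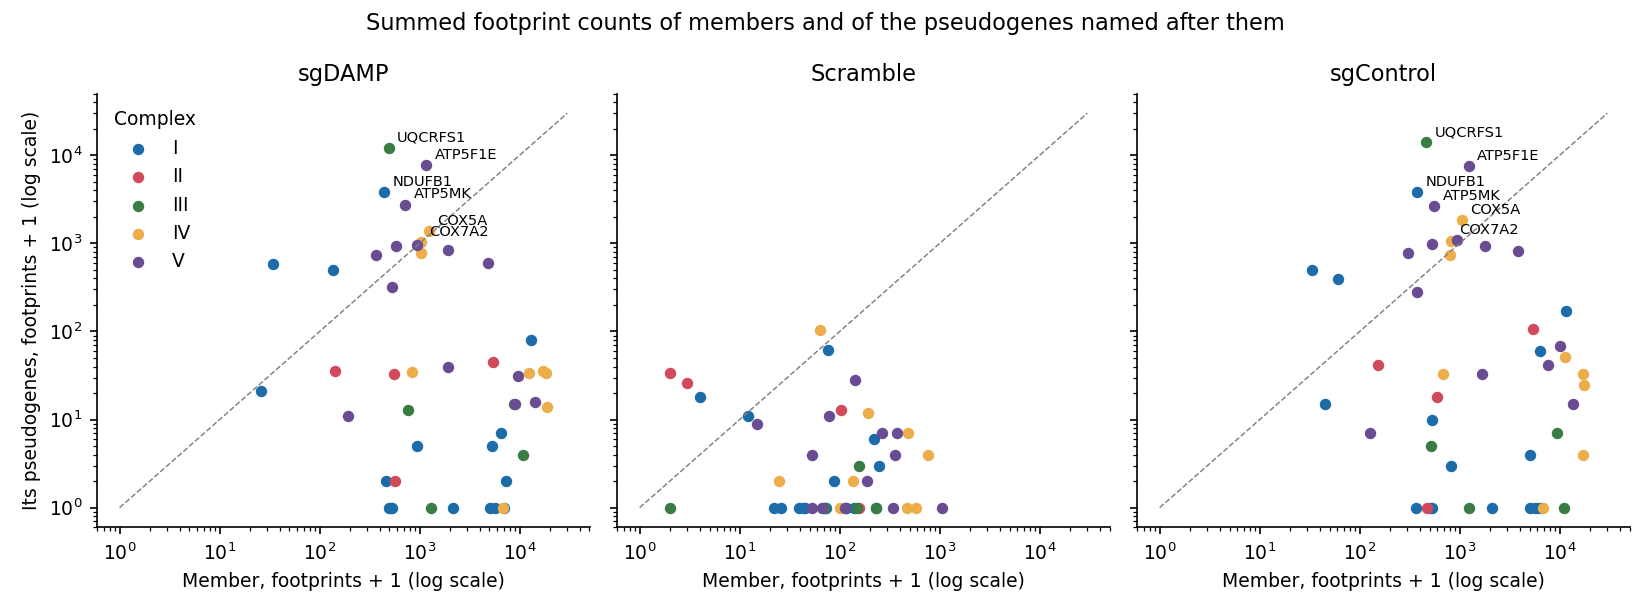
Footprints of the pseudogenes named after each of 48 members (y axis, log scale) against footprints of the member (x axis, log scale) in sgDAMP, Scramble and sgControl cells; 1 was added to each sum, points are members and the line marks equal counts. In sgDAMP 10 members, in Scramble 4 and in sgControl 11 lie above the line.

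In Scramble cells most members had more footprints than their mRNA predicts. Of 77 tested members 61 were higher and 5 lower (79.2% and 6.49%, against 17.1% and 27.4% of all genes), and their median lay 2.07 above that of all genes. The median of protein-coding genes lay 0.24 above that of all genes, with 17.5% higher and 25.4% lower. The median of all genes lay at -0.68 on the TMM scale. Calls and adjusted p-values test ratios against 0 on that scale, not against the median gene. Complex IV had 11 of 12 higher, complex V 17 of 18, complex I 25 of 34, complex III 6 of 10 and complex II 2 of 3. The calls depend on the scaling: total counts in place of TMM moved the median gene by -2.85 and gave 9 members higher and 50 lower, while the members' median lay 2.11 above that of all genes. With at least 10 counts required in every library 29 were higher and 2 lower, and the median lay 0.65 above. Without Scramble mRNA replicate 2 the count of lower members was 3.

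COX8A had 558, 659.9 and 551 coding CPM of footprints in Scramble cells beside 15.9, 17.1 and 15.6 of mRNA, 6.12 above the median gene (SE 0.18, adjusted p = 2.94e-19 in edgeR). NDUFA4 had 3606, 2763 and 2889 of footprints beside 194, 205 and 203 of mRNA, 4.85 above it (SE 0.28, adjusted p = 1.6e-12 in edgeR). In coding CPM every footprint library of both genes lies far above every mRNA library. With all gene counts as the total, NDUFA4 had 731, 542 and 185 CPM of footprints beside 178, 188 and 187 of mRNA, so replicate 3 lies within the mRNA range. NDUFB6 lay at 5.18, NDUFB1 at 4.69, NDUFA1 at 4.49 and COX7A2 at 4.16. The highest named member of complex II was SDHB at 2.90, of complex III UQCRB at 2.33 and of complex V ATP5MC3 at 2.98. The lowest of complex V, ATP5PB, lay at 1.33. Before the median gene is subtracted, its ratio ranged from 0.46 to 0.84 without one library. Its adjusted p in the full fit was 0.0161 in edgeR. The adjusted p-values of these genes test the unshifted ratio against 0.

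Of the 5 lower members UQCR10 had 1 footprint beside 1622 mRNA counts, 26.7-fold lower in coding CPM (counting interval 4.78 to 1053). SDHD, a membrane anchor of complex II, had 1 beside 1156, 19.0-fold lower (3.40 to 751). ATP5MF-PTCD1 had 0 beside 374, at least 2.05-fold lower at a floor of 3 counts over the group. COX7C and NDUFS7 lay only -0.13 and -0.19 from the median gene. COX7C was not called without Scramble mRNA replicate 2, and NDUFS7 was called in 1 of the 6 fits that left out a library, the one without footprint replicate 2. On the same relative scale, with pseudogene reads added, SDHD lay at 1.77 and COX7C at 1.28. Scramble footprints differed between libraries beyond sampling noise for 59 of 64 members, against 2759 of 3292 genes. Replicate 3 has the fewest coding footprints.

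**Figure D4:**
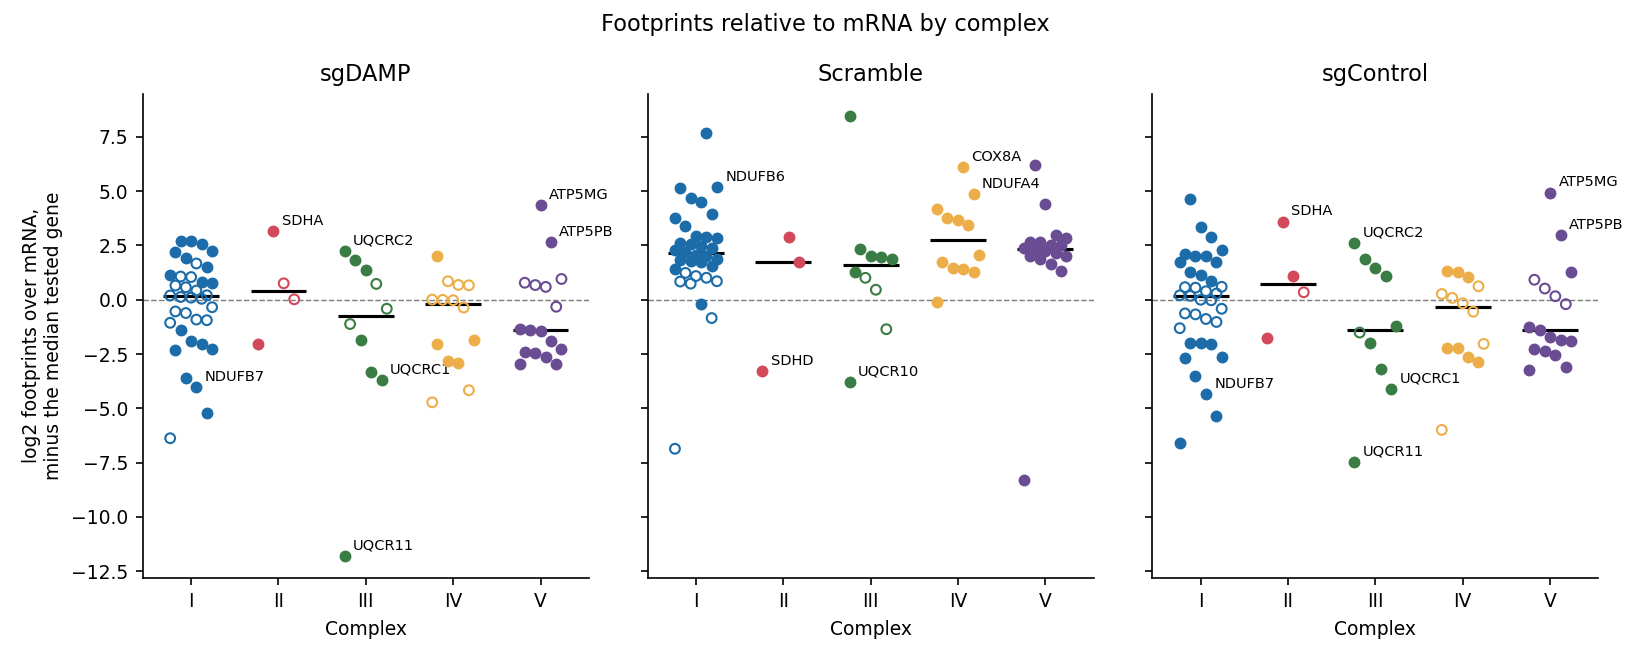
log2 ratio of footprints to mRNA of each tested member minus the median tested gene (y axis), by complex (x axis), in sgDAMP, Scramble and sgControl cells; filled points were called by edgeR, open points were not, and bars are medians. The median of complex V is -1.41 in sgDAMP, 2.34 in Scramble and -1.42 in sgControl cells. That of protein-coding genes is -0.50 in sgDAMP, 0.24 in Scramble and -0.54 in sgControl cells. Calls test the ratio before the median gene is subtracted. Reads counted to pseudogenes are not included.

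Genes around the chain had smaller medians in Scramble cells. Of 47 tested assembly factors 9 were higher and 11 lower with a median relative ratio of 0.85, of 18 TCA cycle enzymes 8 and 3 with 1.27, of 13 mitochondrially encoded subunits 6 and 2 with 0.90, and of 11 other subunits and carriers 4 and 3 with 0.79. Of 13 regulators 0 were higher and 6 lower, with 0.07. Over all genes 17.1% were higher and 27.4% lower. In the CRISPR cells the mitochondrially encoded subunits had medians of -1.93 in sgDAMP and -2.20 in sgControl, with 1 of 13 higher and 8 lower in each, against 38.3% and 29.5% of all genes in sgDAMP and 39.3% and 30.4% in sgControl.

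The order of members in Scramble cells differed from that in the CRISPR cells. Across 62 members the Pearson r of the log2 ratios between Scramble and sgControl cells was -0.08, and across 24 without a named pseudogene it was 0.22. Across 2874 protein-coding genes it was 0.08, so the members are not set apart from other genes in this. For levels, r between Scramble and sgControl cells was 0.158 in footprints (63 members) and 0.808 in mRNA (75 members). Across protein-coding genes it was 0.325 in footprints (2911 genes) and 0.747 in mRNA (11562 genes). Between sgDAMP and sgControl cells the members' r was 0.994 in both, against 0.970 in footprints and 0.987 in mRNA across protein-coding genes. These are descriptions across genes, which are not independent replicates, and Scramble footprints are shallow.

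The difference of the ratios, Scramble minus sgControl, was tested as a comparison chosen after the data were seen. The sgControl footprint sum is 1 sample in this fit and is assumed to vary like the libraries of the other groups. Of 82 members 38 were higher in Scramble and 9 lower (46.3% and 11%, against 14.4% and 18.6% of all genes). Of protein-coding genes 20.7% were higher and 26.6% lower. The median difference was 1.37 over the members, -1.67 over all genes and -0.65 over protein-coding genes, on the log2 scale. How these counts and medians depend on the scaling is not reported here. On the TMM scale NDUFA4 differed by 6.06 (SE 0.78, adjusted p = 2.87e-06) and COX7A2 by 6.01 (SE 0.76, adjusted p = 2.36e-06) in edgeR. Pseudogenes of COX7A2 took 1071 footprints beside its own 820 in sgControl cells, and 0 beside 583 in Scramble cells. The difference with these reads added was not tested. Ratios lay above the median gene in Scramble cells and below it in sgControl cells for 33 of 62 members, against 1399 of 2874 protein-coding genes. NDUFA4 shows this per library. Its footprints were 3606, 2763 and 2889 coding CPM in Scramble cells, against 86.0, 78.1 and 82.0 in sgControl cells, and its mRNA was 194, 205 and 203 in Scramble cells, against 255, 398 and 604 in sgControl cells. Neither set overlaps, with footprints higher and mRNA lower in Scramble cells. Cells and preparation cannot be told apart here.

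**Figure D5:**
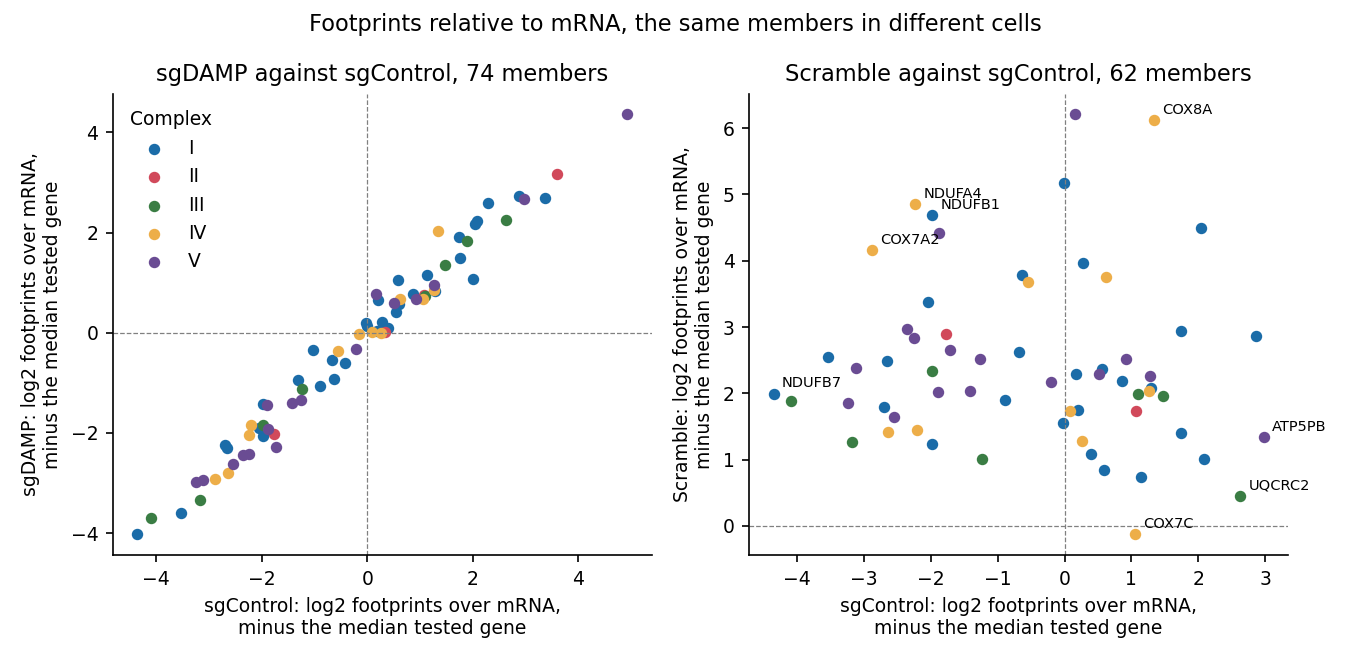
log2 ratio of footprints to mRNA minus the median tested gene in sgDAMP (74 members) and in Scramble cells (62 members), on the y axes, against sgControl cells (x axis); each point is a member with at least 30 counts in each sum. The sgDAMP points follow a line (r = 0.988) and the Scramble points do not (r = -0.08).

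The protein-coding genes whose level was most like the members' sum over the 18 libraries, by Pearson correlation of log2 coding CPM among 9217 genes compared, were H1-2 (0.952), TM4SF4 (0.940), SSR4 (0.932), CCL2 (0.916) and UBE2T (0.906). The libraries fall into sets by assay and preparation, which these correlations share.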

How the data were processed

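Ribosome footprints and mRNA of NCI-H1975 cells were deposited as raw read counts per gene. Per the submitters' processing notes, the authors worked on GRCh38 with HTSeq 0.11.2, HISAT2 2.1.0, Trimmomatic 0.30, SAMtools 1.10 and edgeR. Annotation release, strand setting and counting mode are among the details not given in the sources used here. Summary rows without a gene, 22.2% to 24.2% of reads in sgDAMP and sgControl mRNA and 95.7% to 95.8% in Scramble footprints, were left out. Members and lists were chosen with earlier results of these data known.

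The mRNA comparison, the interaction and the ratios within a condition used edgeR 4.0.16 (R 4.3.3; quasi-likelihood F test, filterByExpr with a minimum count of 10, TMM, Benjamini-Hochberg, threshold 0.05), tested on simulated data; DESeq2 1.42.0 was an alternative. Footprint sums needed 30 counts. Named members had a mean log2 CPM of at least 3: up to 6 called per direction, and the highest and lowest per complex. Genes with no overlap, with pseudogene effects or called on footprints below that level were named after their values were seen. Values of some single genes are not reported here. Replicate numbers did not pair libraries (r from -0.49 to 0.40).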

Additional observations from a re-analysis of the deposited data

Results flagged for a closer look

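Signals outside the members' own counts were found in pseudogenes, each with at least 1000 footprints in sgControl cells. UQCRFS1P1 had 12158 footprints in sgDAMP and 13982 in sgControl. ATP5F1EP2 had 7759 in sgDAMP and 7539 in sgControl, and NDUFB1P1 had 3784 in sgDAMP and 3813 in sgControl. ATP5MKP1 had 2747 in sgDAMP and 2665 in sgControl, COX5AP2 had 1370 in sgDAMP and 1822 in sgControl, and COX7A2P2 had 1029 in sgDAMP and 1071 in sgControl. Apart from UQCRFS1P1, with 35 mRNA counts in sgDAMP and 15 in sgControl, these pseudogenes had at most 3 mRNA counts in either group.

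Footprints relative to mRNA differed between Scramble and sgControl cells by a test of the difference itself in edgeR, on the log2 scale. The sgControl footprint sum is 1 sample in this test. The difference was -6.67 for UQCR10 (SE 0.95, adjusted p = 9.3e-06), which rests on 1 footprint in Scramble cells. It was 6.06 for NDUFA4 (SE 0.78, adjusted p = 2.87e-06), 6.01 for COX7A2 (SE 0.76, adjusted p = 2.36e-06), 5.67 for NDUFB1 (SE 0.70, adjusted p = 1.74e-06) and 5.30 for ATP5MF (SE 0.69, adjusted p = 3.36e-06), all in edgeR. In sgControl cells pseudogenes took more footprints than the member for COX7A2 (1071 beside 820), NDUFB1 (3813 beside 375) and ATP5MF (786 beside 304). In Scramble cells they took 0 beside 583, 2 beside 244 and 3 beside 52. The difference with these reads added was not tested. Preparation differs with the cells and cannot be told apart from them.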

How the results depend on the processing

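Counts are members higher and lower. For mRNA and the interaction they stayed 0 and 0 under every alternative run, replicate blocks included. Footprints of sgDAMP over sgControl gave 35 and 13 with libraries as replicates, 35 and 15 with a replicate block added, 14 and 0 with total counts, 1 and 0 at a ratio of 2, 0 lower with pseudogene counts added, and 4 to 7 and 0 to 1 without one library. Ratios in Scramble gave 29 and 2 with at least 10 counts in every library, 9 and 50 with total counts, 3 lower with pseudogene counts added, 54 and 3 with the replicate block, and 52 to 62 and 3 to 5 without one library. Ratios in sgDAMP gave 28 higher with libraries as replicates, 30 with the replicate block and 15 to 29 (lower 24 to 28) without one library, and those in sgControl 14 with total counts and 18 to 26 (lower 25 to 29) without one library. As shares of all gene counts the members held 0.846% of Scramble mRNA and, in footprints, 1.43% in sgDAMP, 0.417% in Scramble and 1.19% in sgControl. Single members turned, in log2 terms or against the median gene. In mRNA without one library NDUFA10 ranged from -0.090 to 0.16 (-0.015 without sgControl replicate 2), SDHC from -0.044 to 0.40, UQCRB from -0.031 to 0.70 and ATP5PB from -0.098 to 0.89; the lowest was without sgDAMP replicate 2 for each. In the interaction SDHB ranged from -0.50 to 0.15. In Scramble ATP5PB was -0.35 with at least 10 counts in every library, NDUFS7 -1.03 and COX7C -0.97 with no filter, and SDHD 1.08 and COX7C 0.60 with pseudogene counts added. Without one Scramble library NDUFS7 ranged from -1.36 to -0.61 and COX7C from -1.07 to -0.63, and both turned against the median gene in some. UQCRFS1 turned to 1.55 in sgDAMP and 1.97 in sgControl with pseudogene counts added. The cause was not tested. Pseudogene counts were added as an alternative after the data were seen. Scramble footprints, with 83410 to 240151 coding counts, limit the precision of single members.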
